A study of Mus musculus with 15 samples.

Results

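The neurons described here are GFP+ cells of the mouse ventral midbrain at embryonic day 14 (E14) and on the day of birth (P0), sorted by fluorescence from Pitx3-GFP mice, and compared in 6 of the 15 libraries of the series. Pitx3 is a transcription factor gene of midbrain dopamine neurons, and GFP marks the cells in which its reporter is active, so Pitx3 itself is no independent check of the sort. Both ages share the genotype Pitx3-GFP, the tissue (ventral midbrain) and the treatment (purification by FACS), and differ in age, with 3 libraries each; 3 libraries of sorted GFP+ cells from embryonic day 16 (E16) entered the same fit. The tissue came from 3 litters, and nothing states that a replicate stands for a litter of its own, so p-values measure the spread between these libraries, part of which may be technical. All 10781 genes of the deposited gene table were taken, together with the 1630 of 7528 circular RNAs (circRNAs) that had a mean of at least 2 normalized reads over the 9 time series libraries. A normalized read is a read count that the authors divided by a scaling factor of its library, with separate factors for genes and circRNAs.

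Dopamine neurons of the ventral midbrain are born before E14, and the days up to birth are the time in which they migrate, extend axons to the forebrain and begin to form synapses. CircRNAs are closed loops made when the end of an exon is joined backwards to the start of the same or an earlier exon. They have no free ends and decay slowly, are abundant in neurons, and are counted from reads that cross the backward junction. The gene from which a circRNA is made is called its host, and its linear RNA and its circles compete for the same transcripts.

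Gene reads numbered 17910017 to 33386535 per library, and circRNA reads 24760 to 32905 at E14 and 11196 to 18097 at P0, so circRNA values are the less precise, more so at P0. All 17 genes of the dopamine neuron identity list had a row, and 9 of them fell and 6 rose, with a median of -0.66. Th, which makes the dopamine precursor L-DOPA from tyrosine, was at 8989, 9696 and 9457 normalized reads at E14 and 9162, 10132 and 11964 at P0 (log2 fold change 0.14, SE 0.12, limma adjusted p = 0.341). Drd2, the dopamine autoreceptor, was at 295, 324 and 284 at E14 and at 464, 610 and 738 at P0 and rose by 0.98 (SE 0.17), while Foxa2, an early transcription factor of these neurons, fell by 1.09 (SE 0.10). Markers of other cell types were few in this table, which starts at genes of moderate abundance: 5 of 15 astrocyte genes, 4 of 14 oligodendrocyte lineage genes, 2 of 16 microglial genes, 2 of 21 vessel genes and 0 of 11 erythroid genes had a row, and the others were not analysed here. The summed astrocyte genes ranged from 11648 to 12931 normalized reads at E14 and from 12733 to 17735 at P0, and the highest value was that of P0 replicate 3. That library stood apart in glial genes. Apoe, the lipid carrier of astrocytes, was at 725 and 672 in P0 replicates 1 and 2 and at 2216 in replicate 3. Fabp7, which binds fatty acids in radial glia, was at 1438, 1081 and 3293 in the same order. In that library 35 genes lay more than 1 log2 unit from the mean of the other P0 libraries. The same count within each age was 20 and 1 for P0 replicates 1 and 2, and 33 for E16 replicate 2. The count by itself therefore does not set P0 replicate 3 apart. Several changes below are also given without P0 replicate 3, and the part of glial RNA in the changes was not tested.

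At an adjusted p of 0.05 limma called 55.7% of the 10781 genes, with 25.1% standing higher at P0 and 30.6% standing lower, and the libraries of the ages did not overlap for 65.2%. Each count of a gene list below is to be read against those shares. The median change of all genes was -0.05 on the log2 scale.

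The genes with the largest rise whose mean reached 200 normalized reads included Sparcl1 and Apoe, which are on the astrocyte list. Sparcl1, a matrix protein of astrocytes that also acts at synapses (chromosome 5, 104079111 to 104113733), was at 213, 159 and 159 normalized reads at E14 and at 2364, 2047 and 4788 at P0. All P0 libraries were above all E14 libraries, as the ranking required, and the log2 fold change was 4.01 (SE 0.24, limma adjusted p = 1.5e-08). Without P0 replicate 3 it was 3.64. Apoe (chromosome 7, 19696109 to 19699188) was at 120, 111 and 126 at E14 and rose by 3.09 (SE 0.35), or by 2.54 without P0 replicate 3. In the authors' deposited table of sorted E14 cells both genes were lower in GFP+ than in GFP- cells, at log2 fold changes of -3.40 for Sparcl1 and -2.70 for Apoe.

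Other genes of this group differed less among the P0 libraries. Ache, the enzyme that breaks down acetylcholine and is made by dopamine neurons (chromosome 5, 137287519 to 137294466), was at 210, 206 and 171 normalized reads at E14 and at 1398, 1382 and 1441 at P0 (log2 fold change 2.85, SE 0.14). Tacr3, the neurokinin B receptor (chromosome 3, 134829007 to 134934579), was at 148, 104 and 79.0 at E14 and at 893, 705 and 936 at P0 (2.96, SE 0.19). For both genes the lack of overlap was a condition of the ranking. Add3, an adducin of the membrane skeleton, and Cdkl2, a kinase related to cyclin-dependent kinases, rose by 2.77 (SE 0.12) and 2.86 (SE 0.12). In the authors' deposited table of sorted E14 cells Ache and Add3 were also lower in GFP+ cells, at -0.98 and -1.84, and Cdkl2 was at 0.36. Lmo7, a scaffold of cell junctions, rose by 2.91 (SE 0.17) and Nrip3, whose name is that of a nuclear receptor interacting protein, by 2.89 (SE 0.15).

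**Figure D1:**
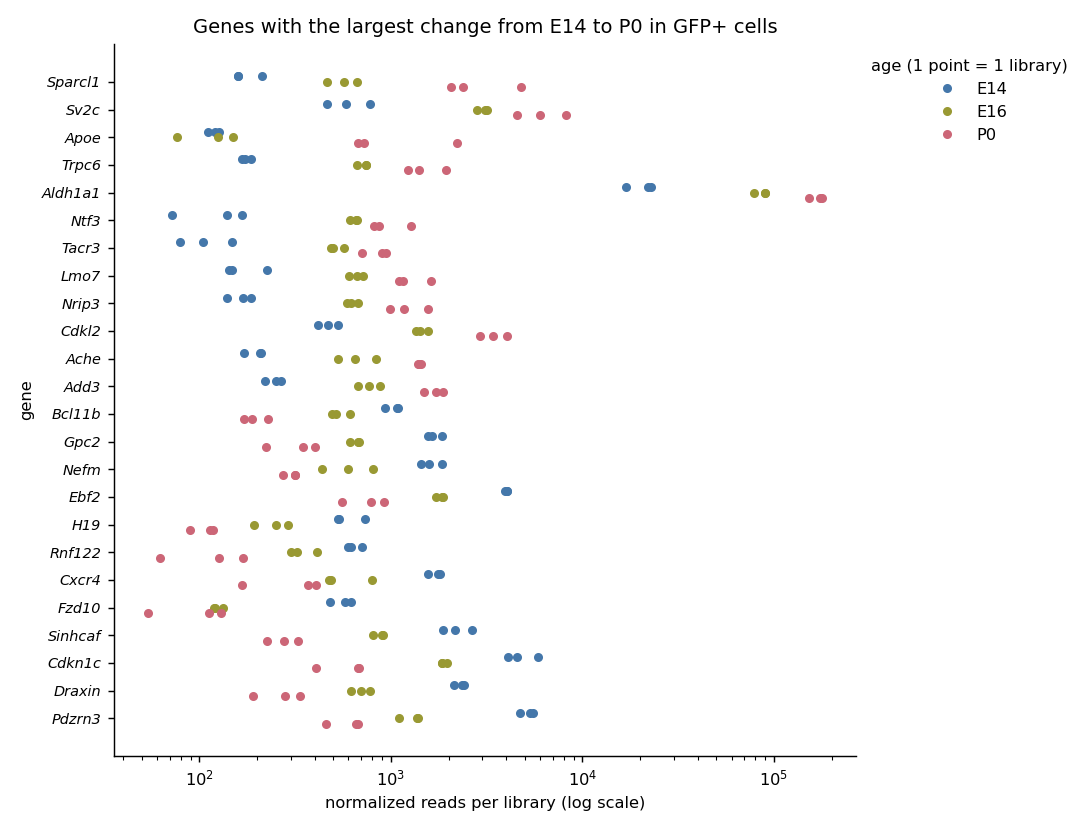
Normalized reads per library (log scale on the horizontal axis) of the 12 genes with the largest rise and the 12 with the largest fall from E14 to P0, among genes that passed the test, reached a mean of 200 and did not overlap; each point is 1 of 3 libraries per age. E14 and P0 points do not overlap for any gene shown, and for Sparcl1 and Apoe 1 P0 library, at 4788 and 2216 normalized reads, stands to the right of the others.

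The 12 genes with the largest fall included Cxcr4, Ebf2 and Bcl11b, the last of which is on the list of immature neuron genes. Cxcr4, the receptor of the chemokine Cxcl12 that steers migrating neurons (chromosome 1, 128588199 to 128592293), was at 1556, 1804 and 1770 normalized reads at E14, at 486, 796 and 475 at E16 and at 368, 405 and 166 at P0. It fell by 2.55 on the log2 scale (SE 0.27), and by 2.14 without P0 replicate 3. Ebf2, a transcription factor of early neuronal differentiation (chromosome 14, 67233292 to 67430918), was at 4052, 3920 and 4041 at E14 and at 921, 787 and 557 at P0 (log2 fold change -2.44, SE 0.13). Bcl11b, a zinc finger transcription factor of neuronal subtypes, was at 934, 1070 and 1087 at E14 and at 188, 171 and 228 at P0 (-2.40, SE 0.13). Gpc2, a glypican of growing axons, and Rnf122, a ubiquitin ligase, fell by 2.40 (SE 0.16) and by 2.53 (SE 0.26). H19, an imprinted RNA of fetal tissue, fell by 2.47 (SE 0.18).

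Immature neuron genes were lower at P0 as a list, while some genes of axon growth stood higher. Of 35 tested genes of immature and migrating neurons 17 fell and 5 rose, with a median of -0.29. Sox11, a transcription factor that switches on genes of new neurons (chromosome 12, 27334264 to 27342574), was at 28566, 29314 and 33297 normalized reads at E14, at 14685, 14348 and 15156 at E16 and at 6967, 7069 and 6330 at P0. The 3 ages did not overlap, and the log2 fold change from E14 to P0 was -2.16 (SE 0.08, limma adjusted p = 7.54e-10). Gap43, a protein of growth cones, rose by 0.62 (SE 0.09), and Tubb2a, a tubulin, by 0.71 (SE 0.10).

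The mature cytoskeleton list moved in both directions. Of 29 genes 13 rose and 6 fell, with a median of 0.17. Nefm, the medium neurofilament protein (chromosome 14, 68082590 to 68124846), was at 1588, 1433 and 1836 at E14 and at 316, 274 and 315 at P0, a fall by 2.42 on the log2 scale (SE 0.17). Ina and Nefl, internexin and the light neurofilament protein, both fell, Ina by 1.13 (SE 0.07). Among the members that rose, Dync1i1, a dynein chain of axonal transport, was at 478, 400 and 405 at E14 and at 2197, 2398 and 2747 at P0 (log2 fold change 2.51, SE 0.11). Sptbn4, the spectrin of the axon initial segment, rose by 1.16 (SE 0.09), and Snap25, a protein of vesicle fusion, by 1.44 (SE 0.10).

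Receptors for the fast transmitters mostly stood higher at P0. Of 43 tested subunits of glutamate, GABA and glycine receptors and their partners, 33 rose and 2 fell, with a median of 0.72 (31 rose and 3 fell without P0 replicate 3). Glra3, a glycine receptor subunit (chromosome 8, 55940460 to 56130070), was at 142, 157 and 97.6 normalized reads at E14, at 468, 421 and 447 at E16 and at 664, 821 and 1107 at P0 (log2 fold change 2.69, SE 0.19). Gabrg3 and Gabra4, subunits of the GABA-A receptor, rose by 2.19 (SE 0.24) and 2.18 (SE 0.13). Grm8, a metabotropic glutamate receptor that lowers transmitter release, fell by 0.73 (SE 0.14), and Cacng2, an AMPA receptor partner, by 0.23 (SE 0.08). The call of Cacng2 was lost without E14 replicate 2 or 3 and without P0 replicate 1 or 2 (-0.22, -0.22, -0.20 and -0.24), and after scaling to equal totals (-0.21).

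Signalling behind these receptors moved in the same direction. Of 44 genes of calcium and G protein signalling 35 rose and 2 fell, with a median of 0.75 (32 and 2 without P0 replicate 3). Rgs6, which shortens G protein signals in dopamine neurons (chromosome 12, 82588292 to 83162056), was at 540, 450 and 356 at E14 and at 1233, 1570 and 2119 at P0 (log2 fold change 1.85, SE 0.17). Adcy2, an adenylyl cyclase, and Atp2b4, a calcium pump of the plasma membrane, rose by 1.59 (SE 0.10) and 1.56 (SE 0.07). Rgs8 and the phosphodiesterase Pde1c fell by 0.52 (SE 0.09) and by 0.44 (SE 0.08).

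Potassium channels moved in both directions. Of 32 genes 16 rose and 5 fell, with a median of 0.28. Kcnj9, a G protein gated channel subunit (chromosome 1, 172320501 to 172329318), was at 162, 141 and 138 normalized reads at E14 and at 442, 430 and 390 at P0 (log2 fold change 1.51, SE 0.12). Kcnc2, a channel of fast spiking, and Kcnt1, a sodium activated channel, rose by 1.38 (SE 0.12) and 1.36 (SE 0.13). Kcnk9, a leak channel (chromosome 15, 72501089 to 72546340), was at 9354, 9429 and 9007 at E14 and at 5198, 4718 and 3044 at P0. It was lower in every P0 library and lowest in P0 replicate 3, and fell by 1.14 (SE 0.14), or by 0.90 without that library.

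Adhesion genes rose more often than they fell, with 26 of 49 higher and 8 lower and a median of 0.32. Cntn1, a contactin of axons (chromosome 15, 92051165 to 92341967), was at 4919, 5075 and 4089 normalized reads at E14 and at 18022, 22321 and 24821 at P0 (log2 fold change 2.20, SE 0.11). Cntnap5a, of the contactin-associated family, and Slitrk4, a synaptic organizer, rose by 1.99 (SE 0.11) and 1.84 (SE 0.15). The teneurins Tenm4 and Tenm3, which match axons to targets, fell by 0.70 (SE 0.14; 0.50 without P0 replicate 3) and by 0.56 (SE 0.09), and the latrophilin Adgrl2 by 0.55 (SE 0.09).

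Markers that later divide dopamine neurons into subtypes mostly stood higher at P0. Of 19 tested markers of nigral and tegmental subtypes 13 rose and 3 fell, with a median of 0.84. Aldh1a1, a marker of ventral nigral neurons and the most abundant of them, has its values in the plot of the largest changes, where its libraries run from 16975 at E14 to 178449 at P0. Neurod6, a transcription factor of a ventral tegmental group (chromosome 6, 55677822 to 55681263), was at 305, 230 and 215 at E14, at 887, 750 and 779 at E16 and at 1079, 1190 and 1264 at P0 (log2 fold change 2.24, SE 0.13). Cck, a peptide of tegmental neurons, was at 986, 1102 and 1037 at E14 and at 633, 567 and 407 at P0 (-0.98, SE 0.16), and Foxp2 and Satb1, 2 transcription factors, fell by 0.81 (SE 0.10) and by 0.66 (SE 0.09). In these bulk libraries, a larger share of cells of a subtype and more RNA per cell cannot be told apart.

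**Figure D2:**
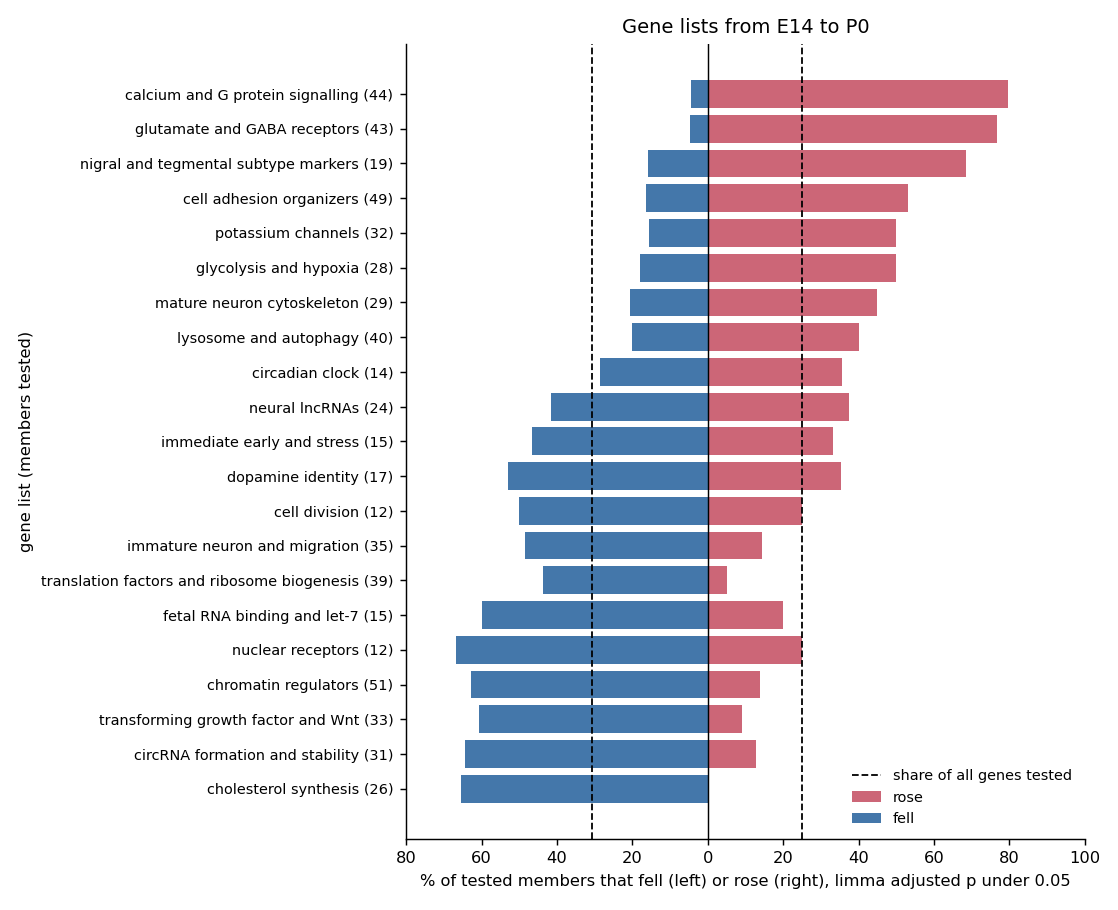
Share of the tested members of each gene list (at least 10 tested, number in brackets) that fell (bars to the left) or rose (bars to the right) from E14 to P0 in limma's test; dashed lines mark the shares of all genes, 30.6% and 25.1%. Calcium and G protein signalling (35 of 44 rose) is at the top and cholesterol synthesis (17 of 26 fell) at the bottom.

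Genes of cholesterol synthesis were lower at birth. Of 26 genes, all in the table, 17 fell and 0 rose in limma's fit (1 rose after scaling to equal totals), and the median was -0.40. Fdft1, the first enzyme committed to sterols (chromosome 14, 63145150 to 63179578), was at 7894, 8358 and 8354 normalized reads at E14, at 7658, 7596 and 8928 at E16 and at 3720, 5024 and 4806 at P0. The E16 libraries lay with those of E14, and the fall by 0.87 on the log2 scale (SE 0.10) came after E16. Ebp and Acat2, a sterol isomerase and a thiolase, fell by 0.70 (SE 0.11) and by 0.69 (SE 0.07). Acat2 was at 3418, 3719 and 4049 at E14, at 3583, 3665 and 3780 at E16 and at 2295, 2369 and 2273 at P0.

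The joint list of glycolytic and hypoxia genes moved in both directions. Of 28 genes 14 rose and 5 fell, with a median of 0.21. Pfkp, a phosphofructokinase (chromosome 13, 6579768 to 6648777), was at 11114, 9382 and 8768 at E14 and at 28029, 26443 and 30694 at P0 (log2 fold change 1.55, SE 0.11), and Eno2, the enolase of neurons, rose by 1.88 (SE 0.12). Ndrg1, a stress responsive gene, rose by 1.61 (SE 0.25), and by 1.19 without E14 replicate 3, where it was at 108 against 273 and 255. Hif1a, the hypoxia sensing transcription factor, was at 7426, 7471 and 7666 at E14 and at 4429, 5156 and 4937 at P0 and fell by 0.64 (SE 0.08). Ankrd37 and P4ha1, also on this list, fell by 1.79 (SE 0.13) and by 0.70 (SE 0.08).

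Chromatin regulators fell as a list. Of 51 genes 32 fell and 7 rose, with a median of -0.45. Ezh2, the methyltransferase of the Polycomb repressive complex (chromosome 6, 47530139 to 47595341), was at 3198, 3402 and 3997 normalized reads at E14, at 2377, 1778 and 2309 at E16 and at 1045, 989 and 786 at P0 (log2 fold change -1.91, SE 0.13). Dpf3 and Ss18, subunits of BAF remodelling complexes, fell by 1.79 (SE 0.15) and by 1.11 (SE 0.09). The exceptions included Hdac9, a histone deacetylase (chromosome 12, 34047580 to 34917095), at 278, 267 and 205 at E14 and at 1200, 1389 and 1628 at P0 (2.49, SE 0.13). Chd5, a remodeller of mature neurons, and Hdac11 rose by 0.75 (SE 0.07) and 0.55 (SE 0.11).

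Growth factor signalling of the TGF-beta and Wnt families was lower too, with 20 of 33 genes down, 3 up and a median of -0.42. Among the ligands, Bmp7 (chromosome 2, 172868012 to 172940321) was at 405, 474 and 548 at E14 and at 106, 117 and 139 at P0 (log2 fold change -1.97, SE 0.18), whereas Wnt7a and Wnt3 rose by 0.63 (SE 0.12) and 0.61 (SE 0.13). Among the receptors, Tgfbr1 was at 7720, 8620 and 9494 at E14 and at 3230, 3428 and 3417 at P0 (-1.35, SE 0.08). Fzd10 was at 483, 574 and 620 at E14 and at 129, 113 and 53.5 at P0. Dkk3, of the Wnt inhibitor family Dickkopf, rose by 1.51 (SE 0.12).

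Nuclear receptors, clock genes and stress genes moved in smaller sets. Of 12 nuclear receptors 8 fell and 3 rose; Nr2f1 (COUP-TFI) was at 332, 348 and 263 at E14 and at 143, 133 and 90.0 at P0 (log2 fold change -1.38, SE 0.20), while Nr3c1, the glucocorticoid receptor, rose by 0.97 (SE 0.17). Of 14 clock genes 5 rose and 4 fell. Nr1d2, a repressor of the clock (chromosome 14, 18204054 to 18239127), was at 407, 397 and 487 at E14, at 598, 575 and 573 at E16 and at 1548, 1541 and 1655 at P0 (1.88, SE 0.10), and Nfil3, which opposes the factors Tef and Hlf at their sites, fell by 0.94 (SE 0.11). The hour of collection was not given in the sources used here. Of 15 immediate early and stress genes 5 rose and 7 fell, with Bdnf, a neurotrophin, up by 0.99 (SE 0.15; 0.76 without P0 replicate 3) and Ier5 down by 1.49 (SE 0.18) on the log2 scale.

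The lysosomal and cell division lists moved in both directions, and the translation list was mostly lower. Of 40 lysosome and autophagy genes 16 rose and 8 fell; Atp6v1a, a proton pump subunit, rose by 0.85 (SE 0.07) and Lrrk2, a kinase linked to Parkinson's disease, by 0.96 (SE 0.13), and Npc2, which carries cholesterol out of lysosomes, was at 1127, 1556 and 1467 at E14 and at 717, 653 and 666 at P0 (log2 fold change -1.01, SE 0.12). Of 39 genes of translation and ribosome assembly 17 fell and 2 rose, with Eef1a2, the elongation factor of mature neurons, up by 0.89 (SE 0.13). Among the 12 cell division genes with a row, out of 30 in the list, 6 fell and 3 rose. Cenpe, a kinetochore motor, was at 107, 108 and 84.7 normalized reads at E14 and at 218, 242 and 281 at P0 (1.30, SE 0.18), and Mcm7, a helicase of DNA replication, fell by 1.25 (SE 0.12). Of 8 progenitor genes 5 fell and 2 rose: Vim, the filament vimentin, fell by 1.62 (SE 0.08), and Fabp7 rose by 1.19 (SE 0.28), or by 0.73 without P0 replicate 3.

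Other cell type markers with a row moved as follows. Of the 5 astrocyte genes 3 rose and 1, the glutamate transporter Slc1a2, fell by 0.46 (SE 0.08). Col4a1 and Col4a2, collagens of vessel walls, rose by 1.97 (SE 0.18) and 1.02 (SE 0.15). They were highest in P0 replicates 1 and 2, where Col4a1 was at 1133 and 1113 against 715 in replicate 3, which is the reverse of Apoe. Of 4 GABAergic genes 2 fell and 1 rose, with Gad1, which makes GABA, down by 0.76 (SE 0.15). Slc17a6, the vesicular glutamate transporter also found in young dopamine neurons, was at 5100, 4931 and 5045 at E14 and at 8211, 8294 and 5111 at P0. Its P0 libraries split, replicate 3 lying just above the E14 libraries, and the change was 0.49 (SE 0.14), or 0.72 without that library. The call was lost without P0 replicate 1 (0.37, limma adjusted p = 0.0518) and without P0 replicate 2 (0.37, limma adjusted p = 0.0609). Of 4 oligodendrocyte genes Mbp rose by 0.69 (SE 0.12) and Bcas1 fell by 1.41 (SE 0.23), or by 1.06 without P0 replicate 3.

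Of the 24 tested neural lncRNA genes 9 rose and 10 fell. Snhg11 (chromosome 2, 158375638 to 158386145) was at 7838, 6216 and 6271 normalized reads at E14, at 10670, 11900 and 10378 at E16 and at 30191, 29502 and 30941 at P0 (log2 fold change 2.16, SE 0.09). Meg3, the imprinted lncRNA of the Dlk1 locus, was at 59815, 48219 and 54311 at E14 and at 135574, 130838 and 145636 at P0 (1.35, SE 0.12), while the protein coding gene of that locus, Dlk1, fell by 1.49 (SE 0.11). Rmst, a lncRNA gene of the midbrain (chromosome 10, 92071037 to 92165170), was at 9072, 8204 and 9237 at E14 and at 5726, 4509 and 2829 at P0 (-1.08, SE 0.19). Without P0 replicate 3 its change was -0.80.

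Host genes of microRNAs, picked out after their values were seen, moved in opposite directions. MicroRNAs are short RNAs that bind targets through a seed, bases 2 to 8, and the microRNAs themselves were not measured here. Mir17hg, which carries the miR-17-92 cluster of growing cells (chromosome 14, 115042879 to 115046727), was at 506, 473 and 544 normalized reads at E14 and at 193, 210 and 166 at P0, and fell by 1.42 on the log2 scale (SE 0.13). Mir22hg (chromosome 11, 75461539 to 75466676) was at 109, 125 and 100.5 at E14 and at 251, 271 and 323 at P0, and rose by 1.33 (SE 0.15). Mir99ahg, which spans the let-7c, miR-99a and miR-125b genes (chromosome 16, 77236317 to 77773427), was at 2213, 2005 and 1991 at E14 and at 1697, 1499 and 924 at P0 (-0.64, SE 0.17). Without P0 replicate 3 its change was -0.37 (limma adjusted p = 0.0121). Mir124-2hg and Mir124a-1hg, hosts of the neuronal miR-124, fell by 0.87 (SE 0.07) and by 0.52 (SE 0.10), and Mirg was not called (0.05, SE 0.11). The sequences below are the main arms of the miRNAs that lie within 3 of these hosts, from RefSeq on GRCm38.p6, 5′ to 3′ with the seed in capitals. They are shown so that the seeds of the falling and the rising hosts can be set side by side.
mmu-miR-17-5p: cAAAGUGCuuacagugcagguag
mmu-miR-20a-5p: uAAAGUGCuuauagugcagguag
mmu-miR-18a-5p: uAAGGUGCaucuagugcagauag
mmu-miR-19a-3p: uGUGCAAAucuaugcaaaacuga
mmu-miR-19b-3p: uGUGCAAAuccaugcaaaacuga
mmu-miR-92a-3p: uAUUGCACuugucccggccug
mmu-let-7c-5p: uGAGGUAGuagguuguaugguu
mmu-miR-99a-5p: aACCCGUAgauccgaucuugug
mmu-miR-125b-5p: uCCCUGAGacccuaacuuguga
mmu-miR-22-3p: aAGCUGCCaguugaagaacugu
Of these, miR-17 and miR-20a share a seed, as do miR-19a and miR-19b. The single arm shown from the host that rose, miR-22-3p, has a seed of its own.

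The median change was higher for longer genes, which is given as a description. Genes were ranked by their span on the genome into 10 bins of equal size. Among the 1078 genes of the shortest bin (up to 4.48 kb) the median log2 fold change was -0.21, with 162 genes higher and 414 lower. Among the 1078 of the longest bin (from 154 kb) it was 0.10, with 451 higher and 283 lower. Each P0 library was set against the same mean of the E14 libraries, so the 3 are not independent. Their medians were -0.19, -0.23 and -0.15 in the shortest bin and 0.11, 0.13 and 0.10 in the longest. The 578 genes that rose at least 2-fold (5.36% of those tested) had a median span of 56.4 kb, and the 262 that fell as much (2.43%) one of 21.9 kb, against 26.9 kb for all genes. Sorted by summed exon length, the medians ran from -0.18 in the shortest bin to -0.01 in the longest.

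**Figure D3:**
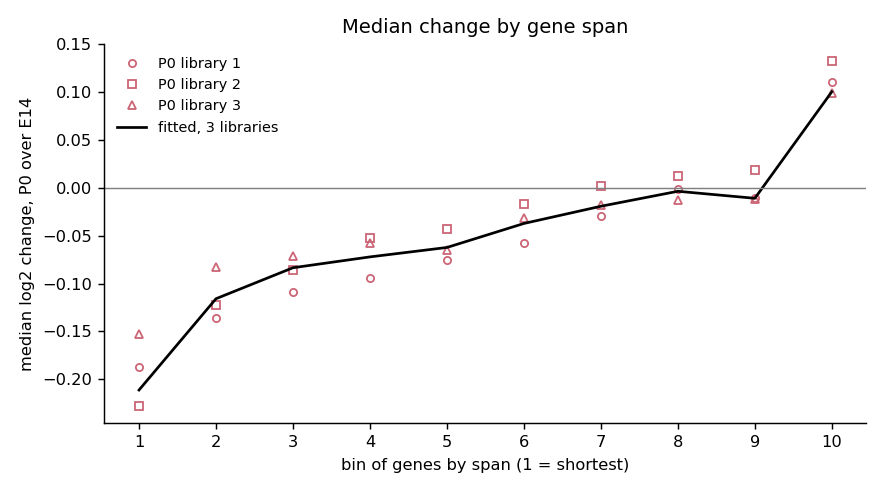
Median log2 change from E14 to P0 (vertical axis) of genes ranked by span into 10 bins (horizontal axis, 1 the shortest); open symbols are single P0 libraries against the E14 mean and the line the fit over 3 libraries. The medians climb from -0.21 in the shortest bin to 0.10 in the longest.

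The genes that rose most had often been low in GFP+ cells at E14. In the authors' deposited table of sorted E14 cells, made from other libraries of the series, 39.8% of the genes that later rose at least 2-fold were lower in GFP+ than in GFP- cells and 15.6% higher, against 12.3% and 16.5% of all genes of the time series table. For those that fell at least 2-fold the authors' deposited table had 38.3% higher and 16.1% lower in GFP+ cells. Neurod6 and Hdac9, for example, were at -2.60 and -1.48 in that table and rose, while Ebf2 and Kcnk9 were at 2.72 and 4.24 and fell. At E16 the genes that rose at least 2-fold had covered a median of 62.2% of their log2 change and those that fell 49.0%. The E16 mean lay between the other ages for 95.7% and 96.6% of them, against 57.6% of all genes. Both groups were picked for a large change between E14 and P0, which by itself makes a mean in between likely.

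CircRNAs as a whole became scarcer against gene reads, which include reads of the circles. Counted as reads, circRNAs stood at 1217, 1167 and 1382 per 1000000 gene reads at E14, at 1176, 885 and 1093 at E16 and at 578, 507 and 542 at P0. The means were 1256 ± 113 at E14, 1051 ± 149 at E16 and 542 ± 35.6 at P0 (SD, n = 3 libraries), and E14 was 2.32-fold P0. No E14 and P0 library overlapped, and an exact permutation test, two-sided, gave p = 0.1, the smallest that 3 against 3 allows. The number of circRNAs with reads was 2363 to 3003 at E14 and 1356 to 2053 at P0. The authors scaled circRNAs by factors of their own, which take out most of this change: on the deposited values E14 was 1.13-fold P0, at 923 ± 39.2 against 815 ± 48.5 per 1000000 (exact permutation p = 0.1). Changes of single circRNAs below are therefore relative to the other circRNAs, and on the scaling of the gene table their median moved from -0.36 to -1.06 on the log2 scale.

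**Figure D4:**
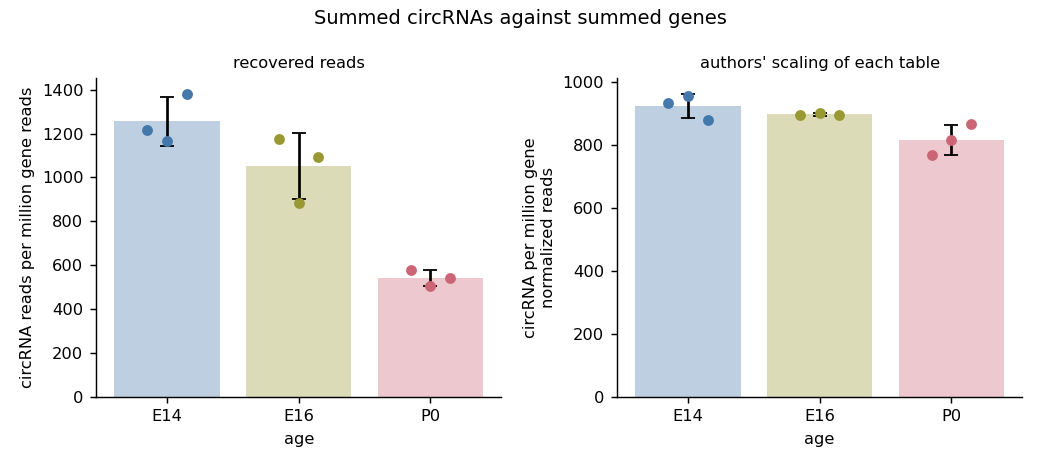
Summed circRNAs per 1000000 of summed genes at E14, E16 and P0, as recovered reads (left) and as the authors' separately scaled values (right); bars are means, error bars SD and points the 3 libraries of each age. On reads P0 lies at 542 and E14 at 1256, while on the authors' scaling they lie at 815 and 923.

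RNA binding proteins known to act on circle formation or decay fell in the same libraries. Of 31 genes in that list 20 fell and 4 rose, with a median of -0.36. Nono and Hnrnpm, which bind nascent transcripts, had log2 fold changes of -0.75 (SE 0.07) and -0.72 (SE 0.10). Qk, which brings circle ends together, rose by 0.62 (SE 0.11; 0.47 without P0 replicate 3), as did Adarb1, an editing enzyme, by 0.55 (SE 0.09), and Mbnl2, a splicing factor, by 0.53 (SE 0.10). Their part in the circRNA change was not tested.

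Of the 1630 circRNAs limma called 3.19%, with 20 higher and 32 lower at P0 (1.23% and 1.96%), and the libraries did not overlap for 21.2%. On the scaling of the gene table it called 16.6%, with 8 higher (0.491%) and 262 lower (16.1%). All 32 fallen circRNAs passed there too, but only 8 of the 20 that rose. That scaling moved the median change of circRNAs from -0.36 to -1.06, so the repeated calls of the fallen are no separate check. Leaving out E14 replicate 1, 2 or 3 brought the count of calls down from 52 to 8, 16 and 9. In simulated levels of 1765 circRNAs this fit recovered 16.7% of 2-fold and 66.4% of 4-fold changes. Only the more abundant circRNAs were given a change, the spread between libraries was assumed, and the lack of values at 1 read was not simulated. The recovered shares therefore do not carry over to all 1630 tested.

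The circRNAs that fell included 13 with 0 reads in every P0 library. Among all 1630 tested, 136 had 0 reads in every P0 library and 47 in every E14 library, and P0 libraries held fewer circRNA reads. The lowest value above 0 in the table was 2 reads, so a 0 can stand for 1 read, and a fold against a floor of 3 reads over the P0 group is a value at that floor and not a bound. The most abundant of the 13 was circ_00197_Lin28b, from the gene of an RNA binding protein that blocks let-7 (chromosome 10, 45376620 to 45486395). It was at 26.7, 20.1 and 34.7 normalized reads at E14 and at 0, 0 and 0 at P0, with the E16 mean between them, with 101 reads over the E14 libraries and 0 over those of P0. That is 18.3-fold above the floor, and the fitted log2 fold change was -4.78 (SE 0.61, limma adjusted p = 0.000226). Its host Lin28b was at 727, 668 and 637 at E14 and at 735, 796 and 825 at P0 (0.21, SE 0.10, limma adjusted p = 0.0742). The others of that kind with the lowest fitted values were circ_00417_Rere, circ_00443_2610307P16Rik, circ_00498_Pde5a and circ_00483_Zswim6, with 63, 56, 52 and 45 reads over the E14 libraries.

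Among abundant circRNAs that fell, circ_00004_Rmst was at 373, 376 and 351 normalized reads at E14, at 229, 237 and 248 at E16 and at 190, 200 and 134 at P0 (log2 fold change -1.08, SE 0.15, limma adjusted p = 0.000369). Its ratio to Rmst did not pass on the authors' scaling (-0.01, SE 0.27), and on the scaling of the gene table the ratio was -1.03 (limma adjusted p = 0.0492). Of the 9 tested Rmst circRNAs it was the only one called on the authors' scaling, and 5 were called, all lower, on that of the gene table. circ_00028_Rmst was at 118, 103 and 145 at E14 and at 64.4, 0 and 51.0 at P0, where 1 library at 0 set the large fitted value of -3.02 (SE 0.94, limma adjusted p = 0.0859), and circ_00033_Rmst was at -0.65 (SE 0.23). On the scaling of the gene table these 2 were at -3.81 and -1.66 and passed.

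CircRNAs that fell are set beside their hosts, whose reads come from the same libraries. Of the 29 whose host was measured, 20 had a host that was lower, 4 a host that was higher and 5 a host that was not called. These are counts of circRNAs, in which a host can enter more than once. The 4 with a higher host were circ_00023_Psd3, circ_00574_Psd3, circ_00641_Psd3 and circ_00592_Canx. Among all genes 30.6% were lower and 25.1% higher, and the shares among the hosts of all tested circRNAs were not counted. Hosts leaned lower in general: for circRNAs with a mean of at least 10 the median host change was -0.23, against -0.05 for all genes. circ_00007_Ezh2 was at 273, 272 and 293 at E14 and at 107, 160 and 81.8 at P0 (log2 fold change -1.31, SE 0.20), beside the fall of Ezh2 by 1.91. circ_00010_Elf2 and circ_00051_Usp3, named after their values were seen, fell by 1.26 (SE 0.19) and by 1.93 (SE 0.33), beside host falls by 1.47 and by 1.52. circ_00026_Ttc3, also named after its values were seen, was at 121, 147 and 126 at E14 and at 39.6, 42.4 and 33.2 at P0. It fell by 1.75 (SE 0.23), while Ttc3, a ubiquitin ligase gene, was at -0.04 (SE 0.10, limma adjusted p = 0.761).

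**Figure D5:**
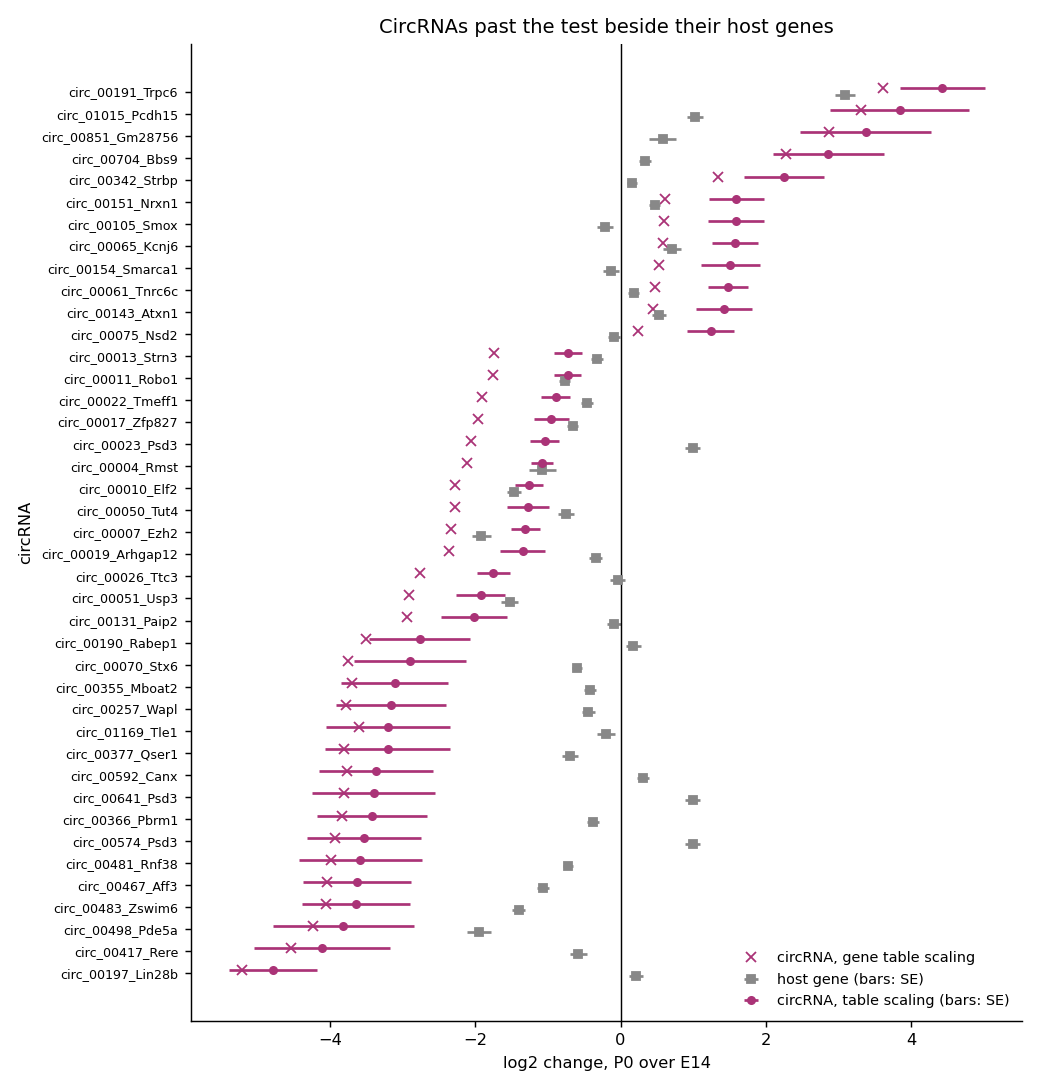
Log2 change from E14 to P0 (horizontal axis) of each circRNA that passed the test and has a host in the gene table: circles on the authors' circRNA scaling, crosses on the gene table's scaling, and squares for the host gene, with bars for SE. circ_00197_Lin28b lies at -4.78 with its host at 0.21, and circ_00191_Trpc6 at 4.43 with its host at 3.08.

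The ratio of a circRNA to its host was tested for 1558 circRNAs of 939 hosts, and 0.706% passed, 3 higher (0.193%) and 8 lower (0.513%) at P0. With circRNAs on the gene scaling it was 4.62%, with 1 higher (0.0642%) and 71 lower (4.56%). Without E14 replicate 1, 2 or 3 the count of 11 went to 1, 1 and 3, and without P0 replicate 2 to 2. The ratio with the largest fall was that of circ_00197_Lin28b, at -5.00 (SE 0.45, limma adjusted p = 0.000483), and it was -5.43 on the scaling of the gene table. Psd3, which encodes an exchange factor of Arf6 at synapses (chromosome 8, 67689082 to 68212027), accounted for 3 of the 8. Its normalized gene reads, which include reads of its circles, were at 4197, 4258 and 3908 at E14 and at 6800, 8371 and 9629 at P0, a rise by 0.99 (SE 0.10). circ_00023_Psd3 was at 135, 137 and 141 at E14 and at 72.6, 70.1 and 56.9 at P0, so that host and circle moved apart, and the ratio changed by -2.03 (SE 0.36, limma adjusted p = 0.0395). circ_00574_Psd3 and circ_00641_Psd3 went from 42 and 38 reads over the E14 libraries to 0 at P0, and circ_00034_Psd3 was at 74.1, 92.7 and 83.1 at E14 and at 69.3, 78.2 and 59.3 at P0, with a ratio change of -1.26 that did not pass.

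The remaining 4 lower ratios belonged to circRNAs of few reads. They came from Sash1, a scaffold gene, Canx, the chaperone calnexin, Ncam2, an adhesion gene, and Tle1, a corepressor, the last 3 named after their values were seen. circ_00542_Sash1 had 44 reads over the E14 libraries and 3 at P0 (ratio change -3.43, SE 0.53), circ_00592_Canx 37 and 0, circ_01056_Ncam2 23 and 0, and circ_01169_Tle1 31 and 0. The 3 higher ratios were circ_00086_Ezh2 at 2.26 (SE 0.41), circ_00105_Smox, from the gene of spermine oxidase, at 1.80 (SE 0.32), and circ_00030_Cdyl, from a chromatin factor gene, at 1.02 (SE 0.19). None of the 3 passed on the scaling of the gene table, where they were at 1.26, 0.81 and -0.0018, and the direction for circ_00030_Cdyl turned. circ_00086_Ezh2 itself was at 39.0, 33.1 and 21.0 at E14 and at 46.2, 48.9 and 24.9 at P0, beside the fallen Ezh2.

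The circRNA with the largest rise came from a gene that rose itself. circ_00191_Trpc6, from the gene of a calcium permeable channel (chromosome 9, 8544142 to 8680741), was at 0, 2.16 and 2.74 normalized reads at E14, at 10.7, 27.7 and 11.5 at E16 and at 39.6, 48.9 and 56.9 at P0. It rose by 4.43 (SE 0.58, limma adjusted p = 0.000226), and Trpc6 itself went from 186, 174 and 167 to 1230, 1400 and 1937, a rise by 3.08 (SE 0.14). The change of the ratio, 1.34 (SE 0.55), did not pass. circ_01015_Pcdh15, from a protocadherin gene, went from 0 reads over the E14 libraries to 31 over those of P0, and circ_01261_Iqschfp from 0 to 28. The latter was at 13.2, 16.3 and 11.9 normalized reads at P0 and at 0 in every library of E14 and E16.

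Other risers were circles of moderate abundance whose hosts moved less. circ_00061_Tnrc6c, from a gene of microRNA silencing, was at 28.3, 23.7 and 24.7 at E14 and at 69.3, 63.6 and 87.7 at P0 (log2 fold change 1.48, SE 0.28), and Tnrc6c was at 0.18 (SE 0.08). circ_00065_Kcnj6, named after its values were seen, comes from a G protein gated potassium channel gene of dopamine neurons. It was at 17.6, 27.3 and 20.1 at E14 and at 49.5, 58.7 and 97.2 at P0 (1.58, SE 0.32), with its host at 0.71 (SE 0.12). On the scaling of the gene table these values were 0.48 and 0.58, and neither passed. Of the 12 risers with a measured host, 7 had a host that was higher, 0 one that was lower and 5 one that was not called by limma. The shares among the hosts of all tested circRNAs were not counted. Of all 20 risers, 6 had no host name, against 43 of the 1630 tested. Among these 6, circ_00768_. went from 4 to 45 reads and circ_00266_. from 26, all in E14 replicate 2, to 95.

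The most abundant circRNA, circ_00001_Tulp4, was at 671, 613 and 693 normalized reads at E14 and at 639, 722 and 906 at P0, and was not called (0.18, SE 0.12, limma adjusted p = 0.418), while Tulp4 fell by 0.58 (SE 0.09). On the scaling of the gene table it was at -0.84 and passed as lower (limma adjusted p = 0.00631). Of the 10 most abundant, circ_00004_Rmst and circ_00007_Ezh2 were called, and circ_00002_Hdgfl3, circ_00003_Rims2 and circ_00005_Ttc3 were at -0.41, -0.36 and -0.52 without passing. With the scaling of the gene table, lower levels passed for 9 of these 10, the exception being circ_00006_Gigyf2 (-0.64, limma adjusted p = 0.0734).

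The makeup of circles within a host was tested as the share of a circRNA among its host's other circRNAs, for 1042 circRNAs of 420 hosts. The scaling of a library cancels in this measure, apart from the pseudocount, the constant added before the log, which matters most at few reads. The median log2 change of the share was -0.0075 with a pseudocount of 0.5 and 0.092 with one of 5. Limma called 0, and 141 had an unadjusted p under 0.05. The 3 with the smallest p had an adjusted p of 0.0772 each in limma's fit: circ_00018_Aff3, circ_00061_Tnrc6c and circ_01234_Apc.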

How the data were processed

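RNA of sorted GFP+ cells was sequenced, and the deposited time series tables hold a signal per gene and per circRNA, read counts that the authors divided by a scaling factor per library. All deposited values were whole multiples of 1 step per library (100% within 0.1 of a whole read), and reads were taken from those steps. Per the submitters' processing notes, Trim Galore, TopHat2, DESeq2 and the build GRCm38 (mm10) were used; versions and the circRNA caller are not given in the sources used here. The authors' deposited tables of comparisons hold log2 fold changes and adjusted p-values.

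Limma 3.58.1 (R 4.3.3, with intensity-dependent spread) was fitted to log2(normalized reads + 1), so changes of low values are understated. The 9 time series libraries shared 1 estimate of spread, with the contrast P0 minus E14, Benjamini-Hochberg adjustment over each whole table and a threshold of 0.05. CircRNAs needed a mean of 2. Separate fits covered the ratio of circRNA to host and the share among the host's circRNAs, and the summed circRNAs had an exact permutation test. The scripts were tested on simulated data with an assumed spread between libraries, and 98.1% of 2-fold changes of genes were recovered. Positions are those of GRCm38. Python 3.11.15 was used for the tables.

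Members and lists were chosen with earlier results of these data known. The named genes are the 12 with the largest change in each direction (mean of at least 200, no overlap), up to 3 per direction in each of 29 lists, and Th, Slc6a3, Nr4a2, Pitx3 and Rmst. The named circRNAs are the 10 most abundant, the 10 with the largest change and the 5 with the largest change of ratio or share in each direction (mean of at least 5), and those of Rmst; where none passed, the 3 with the smallest p are given. Alternatives were other scalings, pseudocounts, filters, a replicate block and leaving out each library. Same-numbered E14 and P0 libraries did not deviate together (r = -0.015, 0.061 and -0.089), so the numbers gave no sign of a pairing. With 3 libraries per age this cannot settle whether they share a preparation. A few named genes are not reported here.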

Additional observations from a re-analysis of the deposited data

How the results depend on the processing

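The count of genes past the threshold stayed within 1.5 times of 6003 under every alternative run, between 5212 and 5585 when a library was left out. Counts of circRNAs moved more. Of 1630 circRNAs 52 passed, against 270 on the scaling of the gene table (40 of them shared with the 52), 11 with only the 6 libraries of the ages compared, 22 with a pseudocount of 0.5 and 85 with one of 5, and 8 to 53 when a library was left out. For the ratio to the host, 11 passed, against 28 with a mean of at least 10, 72 on the scaling of the gene table, 1 with 6 libraries, 29 and 48 with pseudocounts of 0.5 and 5, and 1 to 8 when a library was left out. For the share among the host's circRNAs 0 passed, against 2 with 6 libraries and 1 with a pseudocount of 5. The summed circRNAs differed by -713 per 1000000 gene reads, by -108 on the deposited values, by -575 over circRNAs with a mean of at least 2, and by -758 to -650 when a library was left out. The sign turned on the scaling of the gene table for circ_00001_Tulp4 (-0.84), circ_00008_Nlrp5-ps (-0.81), circ_00012_Fat3 (-0.84) and the ratio of circ_00030_Cdyl (-0.0018), and, called on neither scaling, for circ_00006_Gigyf2 (-0.64), circ_00030_Cdyl (-0.67) and circ_00086_Ezh2 (-0.65). Apart from the scaling and the smaller sets of libraries, the cause was not tested.

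With the replicate number as a block 6098 genes, 49 circRNAs and 2 ratios passed, and 0 shares. No E14 library correlated best with the P0 library of its own number, which with 3 libraries per age cannot settle whether the numbers pair them.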
